A study of Homo sapiens with 24 samples.

Results

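The late response of COLO-357 cells to CDK4/6 inhibition was read from 6 of the 24 arrays of the series, chosen by their sample labels. COLO-357 is an established human cell line that the labels call pancreatic ductal adenocarcinoma. Of the 6 arrays, 3 held RNA of COLO-357 cultures kept for 72 h with 5 µM PD-0332991 and 3 held RNA of COLO-357 cultures kept for 72 h with vehicle, described by the labels as biological triplicates. All 6 cultures were grown in DMEM with serum, penicillin and streptomycin, and no source used here names the vehicle. The arrays used for comparison came from the same line after 24 h of drug or vehicle, and from AsPC-1 cells, a second pancreatic carcinoma line kept in RPMI 1640, after 72 h of the same dose of drug or vehicle. Each condition was thus tested in 1 line at 1 dose, and line and medium cannot be told apart between COLO-357 and AsPC-1. Total RNA was labelled with biotin and hybridised to Illumina bead arrays of 47223 probes.

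PD-0332991, also known as palbociclib, blocks the kinases CDK4 and CDK6. Partnered with cyclin D, these kinases phosphorylate the retinoblastoma protein, which otherwise holds the E2F transcription factors inactive. The DREAM complex keeps the genes of mitosis silent in resting cells. Cells that respond to the drug stop before S phase, and the transcripts of DNA replication and mitosis are the usual readout of that stop. Pancreatic carcinoma cells frequently lack the natural inhibitor of CDK4 and CDK6, p16.

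On the 6 arrays the median signal was 85.5 to 89 intensity units after drug and 90.2 to 92.4 after vehicle, and 19032 to 20081 probes after drug and 19776 to 20697 after vehicle were detected. After normalisation, 24750 probes were tested over all 24 arrays. The deposited files give gene names only for the probes of the authors' own lists of changed genes, so 685 tested probes had names, standing for 599 genes. These names were therefore chosen for a change in this series or in the authors' 2 knockdown lists, and their directions are not independent evidence. None of the 6 lists of cell type markers, ductal epithelium included, had a named member, so the labelled cell type was not checked. Replicate 2 stood apart in both groups: 231 probes differed at least 2-fold from the other 2 replicates after drug and 184 after vehicle, against 14 to 41 probes for replicates 1 and 3 of either group. The first principal component of the 6 arrays, with 50.5% of the variance, separated drug from vehicle. The second component, with 21.6%, separated both replicate 2 arrays from the others. Deviations of same-numbered drug and vehicle cultures correlated at 0.38 for replicate 2, and at 0.15 and 0.14 for replicates 1 and 3. Values with the replicate number as a block are therefore given wherever they change a call.

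In COLO-357 at 72 h, 2791 of the 24750 probes (11.3%) passed an adjusted p under 0.05 in limma, of which 1420 (5.74%) were higher after drug and 1371 (5.54%) were lower. At least 2-fold changes were less even, with 268 probes (1.08%) higher and 132 (0.533%) lower. Signals of the 2 groups did not overlap at 3370 probes (13.6%) that were higher after drug and at 3719 (15%) that were lower. Of the 599 named genes, 105 rose (17.5%), 225 fell (37.6%) and 269 did not pass. The counts of the gene lists below are to be read beside these shares. The falls were mostly of genes that the authors had listed for this same comparison: 162 of those 203 genes fell and 35 rose. Among the 396 genes named only through other lists, 70 rose (17.7%) and 63 fell (15.9%). In the authors' deposited table of this comparison, 229 probes are listed, 45 with a ratio above 1 and 184 below 1. All 229 had the same sign here and 224 were called. Another 2405 called probes, 261 of them with at least a 2-fold change, carried no name and are not described further. The balance of higher and lower calls rested on the scaling, since 1594 probes were higher and 3383 lower with scaling to the 75th percentile, and 727 were higher and 5172 lower with the authors' scaled values.

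Genes of mitosis were the group with the most named members. Of 82 named mitosis genes, 48 fell and 0 rose, where 37.6% of all named genes fell and 17.5% rose. Their median difference was -0.58 on the log2 scale, against -0.01 over all tested probes. Each of the 82 was called lower at 24 h, with a median difference of -1.78, a call made for 5.78% of all probes. Of the 82, 63 were named only through lists other than the authors' 72 h list of this line, and 2 only through AsPC-1 lists. A gene named for a fall at 24 h is likely to be called there, so the 24 h count is not independent of the naming. The mean log2 signal of the 82 genes was 8.99, 9.60 and 9.26 in the 3 drug cultures at 72 h and 9.85, 9.82 and 9.90 in the 3 vehicle cultures. All drug cultures lay below all vehicle cultures, and the drug culture of replicate 2 lay nearest to them. In RNA of whole cultures, fewer dividing cells and less mitotic RNA per cell cannot be told apart. The number of called mitosis genes moved with the arrays and the scaling, being 21 without drug replicate 1, 28 without drug replicate 3, 57 without drug replicate 2, 29 with only the 6 arrays fitted, and 71 or 75 with the other scalings, while 0 rose under any of the 15 alternatives.

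**Figure D1:**
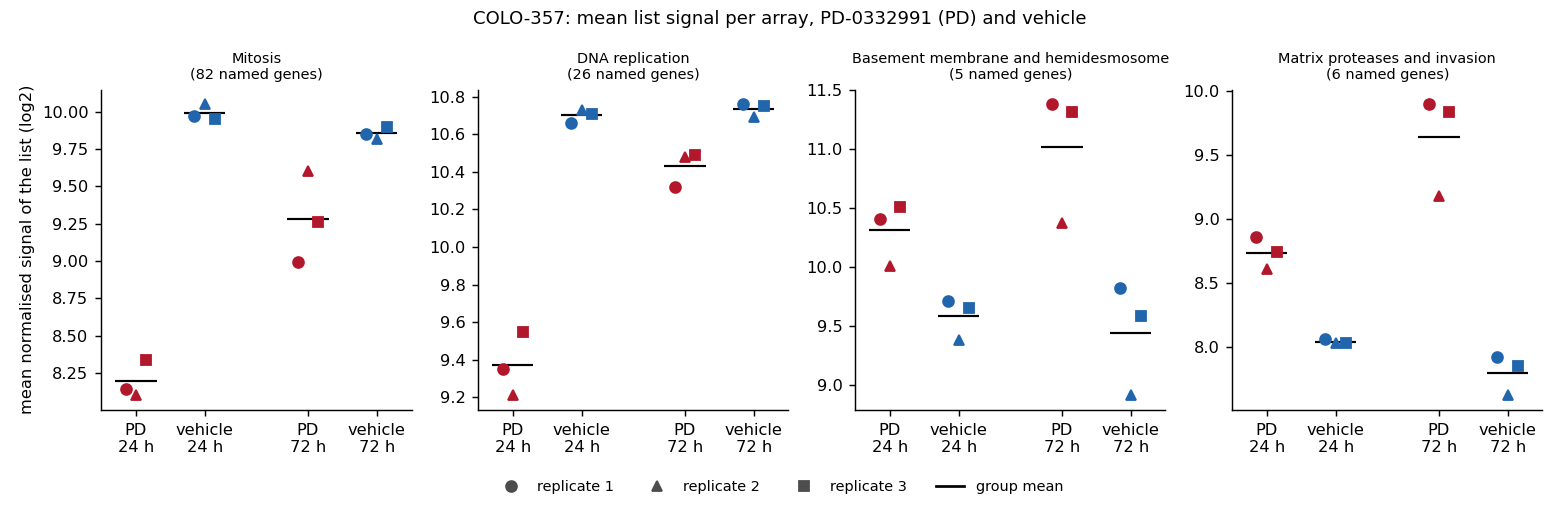
Mean normalised log2 signal per array of 4 gene lists in COLO-357 cultures with PD-0332991 (red) and with vehicle (blue) at 24 h and 72 h, with 1 symbol shape per replicate number and a line at the group mean. Mitosis and DNA replication genes were lowest in drug cultures at 24 h and nearer to vehicle at 72 h, while basement membrane and matrix protease genes were highest in drug cultures at 72 h.

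The largest falls in the list were of genes of the kinetochore, chromatin and the spindle. SPC25, a subunit of the NDC80 complex that ties kinetochores to microtubules, had log2 signals of 7.03, 7.90 and 7.32 after drug and 8.67, 8.66 and 8.74 after vehicle. It was lower in every drug culture than in any vehicle culture, and fell by 1.27 ± 0.19 (SE; limma, adjusted p = 0.00014), or 2.42-fold. Its partner SPC24 had 8.10, 8.81 and 8.24 after drug and 9.26, 9.56 and 9.42 after vehicle (adjusted p = 0.00053 in limma). HMGB2, a chromatin protein abundant in dividing cells, had 8.97, 10.02 and 9.46 after drug and 10.43, 10.88 and 10.76 after vehicle, a 2.30-fold fall (limma, adjusted p = 0.0003). CDKN3, a phosphatase acting on CDKs, fell by 1.04 and the spindle motor KIF15 also fell by 1.04, with no overlap of groups for either (limma, adjusted p = 0.00023 and 4.5e-05). KIF20A, the kinesin of cytokinesis, fell by 1.05, and its drug cultures ran from 8.60 to 9.82 while its vehicle cultures ran from 10.28 to 10.43. In these genes the drug culture of replicate 2 was the highest of its group. The cyclin gene CCNB1 was the extreme case, with 7.83, 9.32 and 8.01 after drug and 9.01, 9.37 and 9.14 after vehicle. Here drug replicate 2 lay within the vehicle range and the groups overlapped, although the gene passed the test (limma, adjusted p = 0.048), as it did under 7 of the 15 alternatives. AURKA and BUB1B, kinases of the spindle and its checkpoint, did not pass, with differences of -0.42 and -0.37. They were called lower under 6 and 4 of the 15 alternatives, and both were without drug replicate 2.

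The drug culture of replicate 2 stood above its group across the mitosis list, and its signal was above those of both other drug cultures in 67 of the 82 mitosis genes and below both in 5. The vehicle culture of the same number was above both others in 26 genes and below both in 38, and drug replicate 2 at 24 h was above in 10 and below in 40. Within each replicate number, the mean drug minus vehicle difference over the 82 genes was -0.86 for replicate 1, -0.21 for replicate 2 and -0.64 for replicate 3. Without both replicate 2 cultures, an alternative added after the data had been seen, 56 mitosis genes fell. In that setting 1083 of the 24750 tested probes and 219 of the 599 named genes were called lower. CCDC58, a mitochondrial protein gene outside the list, had 7.58, 8.62 and 7.32 after drug and 8.95, 8.67 and 8.88 after vehicle, and the helicase gene PIF1 had 5.61, 6.87 and 5.97 after drug and a mean of 6.94 ± 0.13 after vehicle (SD, n = 3). The PIF1 fall (limma, adjusted p = 0.04) was no longer called with the replicate block (adjusted p = 0.062).

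Many mitotic promoters carry a CHR element, the letters TTTGAA near the transcription start, which the DREAM complex binds in resting cells. RefSeq promoter windows on GRCh38.p14, each of 300 bases from 250 before to 50 after a start, were found for 65 of the 82 mitosis genes. TTTGAA occurred, on either strand, in at least 1 window of 43 of these 65 genes (66.2%). Among all promoters, 4961 of 27305 genes (18.2%) had it, and of 112 named genes outside mitosis that fell, 20 had it (17.9%). By window rather than by gene, it was in 45 of 80 mitosis windows (56.2%) and in 15.2% of all windows. The element was in 24 of 40 mitosis genes that fell and in 19 of 25 that did not pass at 72 h, so it was not more frequent among those called at 72 h. The windows of 3 called mitosis genes are shown with the match in capitals, because their match lies close to the start. CDCA3, a trigger of mitotic entry, lies at chr12:6851237-6851536 on the minus strand, with the match starting 3 bases before the start site. PLK1, a master kinase of mitosis, lies at chr16:23678639-23678938 on the plus strand with the match 29 bases before the start. CENPA, the centromeric histone, lies at chr2:26785806-26786105 on the plus strand with the match 18 bases before.
CDCA3: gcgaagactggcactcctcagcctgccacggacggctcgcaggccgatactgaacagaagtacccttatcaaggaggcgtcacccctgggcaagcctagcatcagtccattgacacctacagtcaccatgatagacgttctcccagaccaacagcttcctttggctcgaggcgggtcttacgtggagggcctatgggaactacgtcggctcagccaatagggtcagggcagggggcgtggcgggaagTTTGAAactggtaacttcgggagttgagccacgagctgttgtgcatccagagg
PLK1: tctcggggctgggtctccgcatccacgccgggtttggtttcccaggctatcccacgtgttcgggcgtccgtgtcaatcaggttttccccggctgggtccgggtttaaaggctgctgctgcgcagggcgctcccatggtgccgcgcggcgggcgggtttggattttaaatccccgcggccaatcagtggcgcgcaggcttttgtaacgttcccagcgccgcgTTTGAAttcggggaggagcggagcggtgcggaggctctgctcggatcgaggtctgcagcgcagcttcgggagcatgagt
CENPA: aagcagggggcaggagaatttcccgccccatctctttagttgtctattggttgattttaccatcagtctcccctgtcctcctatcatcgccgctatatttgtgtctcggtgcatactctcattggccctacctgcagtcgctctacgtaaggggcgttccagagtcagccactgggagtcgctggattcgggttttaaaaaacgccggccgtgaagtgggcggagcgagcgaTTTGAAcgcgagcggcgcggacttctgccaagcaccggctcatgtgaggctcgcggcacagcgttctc

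Those 3 genes had the following signals. CDCA3 had log2 signals of 8.01, 8.64 and 8.29 after drug and 9.27, 8.91 and 9.40 after vehicle at 72 h, without overlap, and fell by 0.88 ± 0.20 (SE; limma, adjusted p = 0.0046). PLK1 had 7.09, 7.97 and 7.29 after drug and 8.25, 8.34 and 8.20 after vehicle, again without overlap (limma, adjusted p = 0.0095). PLK1 was called under 13 of the 15 alternatives, and not without drug replicate 1 or without drug replicate 3. CENPA had 9.31, 10.58 and 9.64 after drug and 10.29, 11.02 and 10.53 after vehicle. In CENPA both replicate 2 cultures were the highest of their groups, so the groups overlapped while every within-number difference was negative, from -0.98 to -0.44. CENPA was called (limma, adjusted p = 0.032), but under 8 of the 15 alternatives, and not without drug replicate 1 or 3 or without vehicle replicate 2 or 3. A second CENPA probe was not called (-0.62, limma adjusted p = 0.10).

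Genes of the CDK4/6-RB pathway, of replication and of S-phase repair were called at 72 h in 2 of 9, 6 of 26 and 5 of 13 named members. The counts rested on the scaling: 5, 16 and 11 members of these lists were called lower after scaling to the 75th percentile, and 6, 20 and 12 with the authors' scaled values. CCND1, cyclin D1, the partner of the inhibited kinases, had 14.37, 13.95 and 14.29 after drug and 13.59, 13.13 and 13.41 after vehicle, a 1.78-fold rise without overlap (limma, adjusted p = 0.0002). CCNA2, the cyclin of S phase and mitotic entry, had 10.40, 10.78 and 10.63 after drug and 11.34, 11.26 and 11.49 after vehicle, a 1.70-fold fall without overlap (limma, adjusted p = 0.0016). The other 7 named genes of that list, among them the CDK2 partner CCNE2 (0.14), the CDK2-activating phosphatase CDC25A (-0.04) and E2F2 (-0.15), did not pass. Of 26 named replication genes 6 fell, a smaller share than the 37.6% of all named genes, and 0 rose, with a median of -0.24. RPA3, a subunit of the single-strand binding protein, fell by 1.06 with signals of 10.51, 11.02 and 10.69 after drug and 11.79, 11.71 and 11.91 after vehicle. POLE2, a subunit of a replicative polymerase, fell by 0.83 and the primase PRIM1 by 0.77. The deoxynucleotide synthesis genes RRM2 (0.08) and TYMS (-0.16), the clamp PCNA (-0.15) and the licensing factor CDT1 (0.14) did not pass. E2F2, TYMS and PCNA were called lower under both other scalings. One MCM7 probe fell by 0.53 (limma, adjusted p = 0.0099), but a second MCM7 probe did not pass (-0.20). With the replicate block 8 replication genes fell (6.62% of all probes did), TK1 (adjusted p = 0.033) and RFC5 (adjusted p = 0.029) being added. Of 13 repair genes 5 fell, near the share of all named genes, among them the checkpoint kinase CHEK1 (-0.67) and FANCG (-0.83). BRCA1 (-0.48, limma adjusted p = 0.046) was not called with the block (adjusted p = 0.051), and RAD51AP1 (-0.49, limma adjusted p = 0.061) was (adjusted p = 0.025).

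Set against 24 h, most of the cell cycle genes were less reduced at 72 h. The difference of the drug effects, 72 h minus 24 h, was called at 456 probes (1.84%), with 310 (1.25%) moved up and 146 (0.59%) moved down. Among the 82 mitosis genes 59 moved up and 0 down, with a median of 1.19. Of these genes, 63 were named only through lists other than the authors' 72 h list of this line. So were 22 of 26 replication and 11 of 13 repair genes. Where a gene was named for a fall at 24 h, that choice favours a smaller effect at 72 h. The counts of moved genes in these lists are therefore not independent of the naming. Of the 9 named genes of the CDK4/6-RB list 6 moved up and 0 down. Of the replication genes 16 of 26 moved up and of the repair genes 6 of 13. With the block 61 mitosis, 19 replication and 8 repair genes moved up. Over all 24750 tested probes, 408 moved up and 274 down in that fit. The largest was KIF20A, whose drug effect was -3.50 at 24 h and -1.05 at 72 h, a difference of 2.46 (limma, adjusted p = 0.00011). CDCA3 (2.42), CKAP2L (2.39), PSRC1 (2.30), survivin BIRC5 (2.25), CENPA (2.14), its chaperone HJURP (2.03) and EPR1 (2.01), which is read from the opposite strand of the BIRC5 locus, followed. Over the mitosis genes the median change between 24 h and 72 h was 1.13 in drug cultures and -0.17 in vehicle cultures. The share of upward calls over all probes rested on the scaling, with 349 up and 612 down after scaling to the 75th percentile and 215 up and 1073 down with the authors' scaled values.

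**Figure D2:**
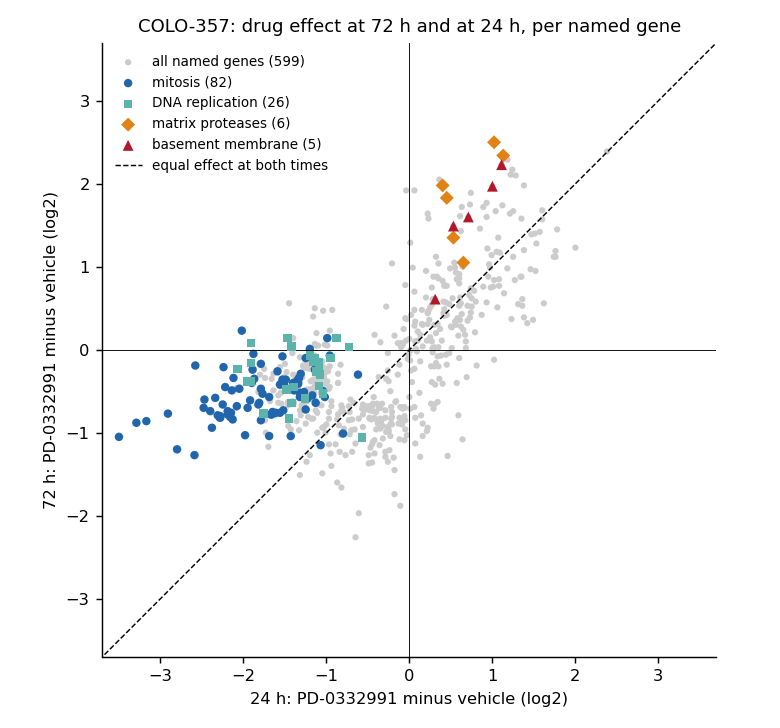
Drug effect (PD-0332991 minus vehicle, mean log2 of 3 arrays each) of 599 named COLO-357 genes at 24 h on the horizontal axis and at 72 h on the vertical axis, with the dashed line marking equal effects. Mitosis genes lie far to the left at 24 h, from -3.50 to -0.62, and most lie closer to 0 at 72 h, with CENPN and C6orf173 as exceptions, while the matrix protease and basement membrane genes lie above the line.

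The rises at 72 h included genes of the cell surface and its matrix. Each of the 6 named protease and invasion genes rose, with a median of 1.90, and did so under all 15 alternatives. MMP7, the matrix protease matrilysin, had 10.19, 10.23 and 10.03 after drug and 7.98, 8.65 and 7.88 after vehicle, a 3.95-fold rise (limma, adjusted p = 1.9e-05). F3, tissue factor, the initiator of clotting, rose 3.55-fold and PLAU, the plasminogen activator urokinase, rose 2.55-fold. CPA4, a secreted carboxypeptidase, had 10.07, 8.58 and 9.81 after drug and 7.91, 5.74 and 7.79 after vehicle. Replicate 2 was the lowest CPA4 culture in both groups, yet the rise within it (2.84) was no smaller than in replicates 1 (2.16) and 3 (2.02).

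All 5 named genes of the basement membrane and the hemidesmosome, the junction that anchors epithelial cells to it, also rose. LAMA3 and LAMB3 encode chains of laminin-332, a main anchor of epithelial cells. LAMA3 averaged 10.25 ± 0.95 after drug and 8.28 ± 1.12 after vehicle (SD, n = 3 each), and LAMB3 had 10.78, 9.72 and 10.79 after drug and 9.34, 8.47 and 9.01 after vehicle. In both genes replicate 2 was the lowest culture of both groups, and the drug culture of replicate 2 still exceeded every vehicle culture. For LAMA3 the differences within replicate numbers, 1.70, 2.15 and 2.06, spread less than the cultures of either group. LAMA3 passed both without the block (limma, adjusted p = 0.0037) and with it (adjusted p = 2.5e-06). COL17A1, the collagen of the hemidesmosome, rose 3.03-fold with little spread, from 12.05 to 12.38 after drug and from 10.50 to 10.71 after vehicle. COL4A1, a chain of type IV collagen, rose 1.53-fold (limma, adjusted p = 0.017), and was called under 9 of the 15 alternatives.

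**Figure D3:**
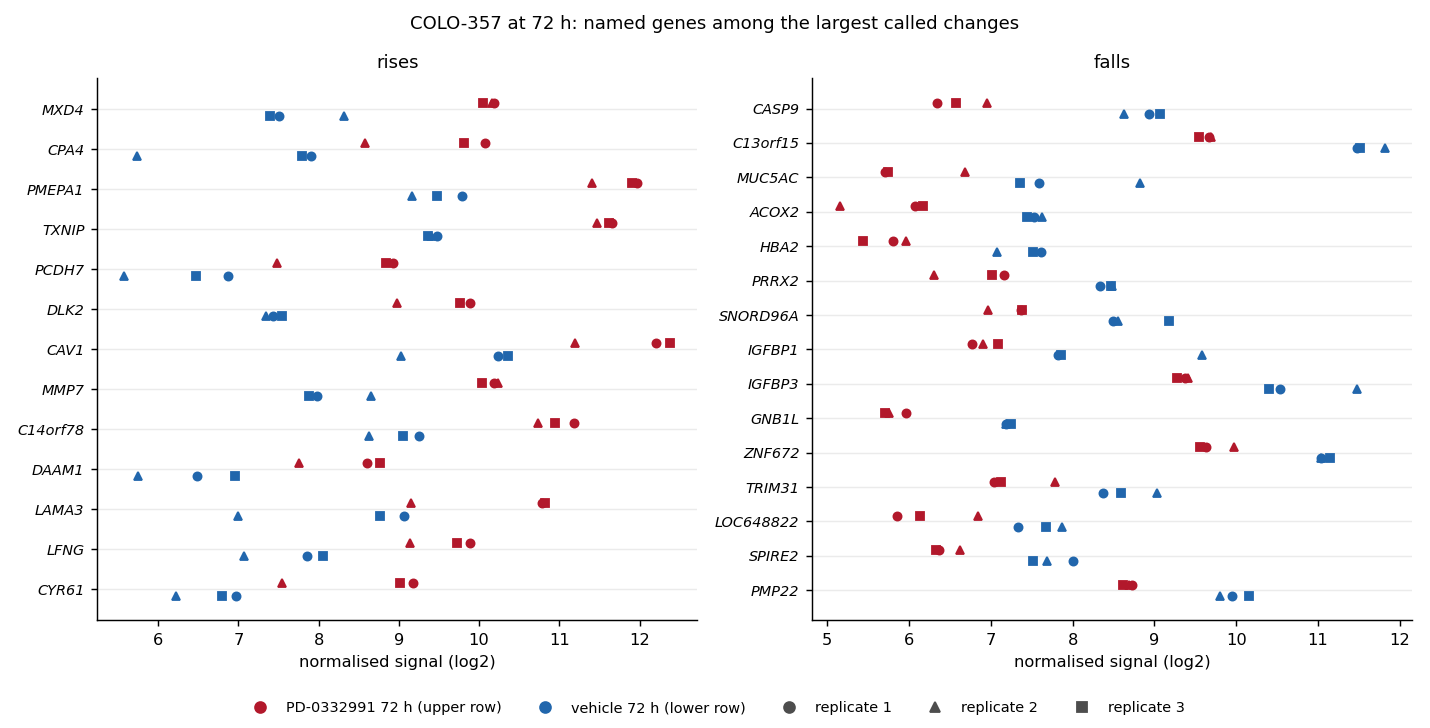
Normalised log2 signal at 72 h of named COLO-357 genes among the largest rises (left) and the largest falls (right), with drug cultures in red above vehicle cultures in blue and 1 symbol shape per replicate number. No gene shown has overlapping groups, and in CPA4, PCDH7, LAMA3 and CYR61 the drug culture of replicate 2 is the lowest of its group.

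Promoters of the protease and laminin genes were searched for the AP-1 site, the letters TGANTCA, which reads the same way on both strands and is bound by JUN and FOS dimers. JUN itself, an AP-1 subunit, had 9.90, 9.24 and 9.76 after drug and 8.27, 8.06 and 8.29 after vehicle, a 2.69-fold rise without overlap (limma, adjusted p = 1.8e-05). The motif was in 4 of 5 protease and invasion genes with a window (CPA4, F3, MMP7 and SERPINB5, which encodes maspin) and in 2 of 4 basement membrane genes (LAMA3 and LAMB3). Among all promoters it was in 2558 of 27305 genes (9.37%), in 7 of 47 named genes with at least 2-fold rises (14.9%) and in 0 of 65 mitosis genes. By window rather than by gene, it was in 7 of 77 windows of the genes with such rises (9.09%) and in 7.71% of all windows. Among other lists with rises, it was in 0 of 4 TGF-beta targets, 0 of 4 mesenchymal, 0 of 3 growth arrest and 0 of 6 amino acid stress genes. It was in 1 of 5 secreted inflammatory genes (IL8) and in 1 of 7 genes of metal, redox and drug metabolism (MT2A). Neither IL8 nor MT2A was called without the replicate block. The genes shown were picked with their rises known. The windows of CPA4 (chr7:130292911-130293210, plus strand), MMP7 (chr11:102530698-102530997, minus strand) and LAMA3 (chr18:23872770-23873069, plus strand) show the matches in capitals. CPA4 holds 2 matches, 48 and 15 bases before the start, MMP7 has 1 at 67 bases, and LAMA3 has 2, at 125 and 69 bases. A match is a stretch of letters, and binding was not measured.
CPA4: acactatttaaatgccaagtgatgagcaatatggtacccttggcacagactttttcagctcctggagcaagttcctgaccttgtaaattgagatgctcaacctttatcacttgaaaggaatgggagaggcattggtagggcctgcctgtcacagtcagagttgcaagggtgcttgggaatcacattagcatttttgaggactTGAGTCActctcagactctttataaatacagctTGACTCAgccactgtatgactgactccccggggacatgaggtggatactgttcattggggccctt
MMP7: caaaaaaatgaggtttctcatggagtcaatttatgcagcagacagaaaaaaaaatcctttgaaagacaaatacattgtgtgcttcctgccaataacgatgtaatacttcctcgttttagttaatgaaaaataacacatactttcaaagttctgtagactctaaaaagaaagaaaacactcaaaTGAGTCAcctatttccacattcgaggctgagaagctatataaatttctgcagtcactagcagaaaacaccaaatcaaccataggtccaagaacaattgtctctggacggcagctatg
LAMA3: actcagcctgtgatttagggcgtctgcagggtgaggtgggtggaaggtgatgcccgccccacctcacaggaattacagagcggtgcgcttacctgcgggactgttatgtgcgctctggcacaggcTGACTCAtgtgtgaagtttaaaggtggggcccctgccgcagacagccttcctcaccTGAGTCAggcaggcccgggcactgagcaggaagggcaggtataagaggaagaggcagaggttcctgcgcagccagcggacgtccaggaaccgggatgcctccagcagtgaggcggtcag

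Genes tied to TGF-beta signalling and to mesenchymal cells rose in part. PMEPA1, a feedback inhibitor of TGF-beta signalling, had 11.97, 11.41 and 11.90 after drug and 9.79, 9.16 and 9.47 after vehicle, a 4.88-fold rise (limma, adjusted p = 2.3e-08). The matricellular gene CYR61 rose 3.78-fold, and in all 4 of 6 named TGF-beta targets rose. IGFBP3, a binding protein of insulin-like growth factors, fell, with 9.37, 9.41 and 9.27 after drug and 10.53, 11.47 and 10.40 after vehicle (2.74-fold; limma, adjusted p = 3.8e-05). PDK4, an inhibitor of pyruvate dehydrogenase, was also lower (-0.65, limma adjusted p = 0.048), and was called under 6 of the 15 alternatives. All 5 named mesenchymal genes rose. CAV1, the coat protein of caveolae, had 12.20, 11.20 and 12.38 after drug and 10.23, 9.03 and 10.36 after vehicle, and CAV2 rose 3.28-fold. NT5E, the surface nucleotidase CD73, rose 3.42-fold, and the transcription factor SNAI2 rose by 0.98. ACTA2, smooth muscle actin, rose by 0.88 (limma, adjusted p = 0.04), but its groups overlapped and it was called under 7 of the 15 alternatives.

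All 3 named growth arrest genes rose. MXD4, which competes with MYC for its partner MAX, had 10.18, 10.16 and 10.05 after drug and 7.51, 8.32 and 7.40 after vehicle, a 5.23-fold rise (limma, adjusted p = 1.3e-07). Its effect was 2.38 at 24 h and 2.39 at 72 h. TXNIP, an inhibitor of thioredoxin and of glucose uptake, had 11.65, 11.47 and 11.62 after drug and 9.48, 9.40 and 9.36 after vehicle, a 4.49-fold rise that was 1.24 on the log2 scale at 24 h and 2.17 at 72 h. The increase of the TXNIP effect had an adjusted p of 0.14 without the block and 0.033 with it (limma). YPEL5, of the yippee-like family, rose 2.34-fold. All 3 genes were called under each of the 15 alternatives.

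Epithelial and secretory genes moved in both directions. CLDN1, a tight junction claudin, had 11.89, 11.54 and 11.76 after drug and 10.02, 9.93 and 10.07 after vehicle, while TJP3, a scaffold of the same junctions, had 7.61, 7.85 and 7.61 after drug and 8.75, 8.90 and 8.65 after vehicle. Neither gene had overlapping groups (limma, adjusted p = 0.00014 and 0.00017). The adhesion genes PCDH7 and CEACAM1 rose by 2.11 and 1.45, and a second CEACAM1 probe did not pass (0.64). MUC5AC, a gel-forming mucin, had 5.71, 6.68 and 5.74 after drug and 7.59, 8.82 and 7.36 after vehicle, a 3.69-fold fall (limma, adjusted p = 0.00051). Both MUC5AC cultures of replicate 2 were the highest of their groups. The secretory gene AGR2 and the brush border genes VIL1 and MYO1A did not pass. Keratin genes showed the replicate 2 pattern of the laminins: KRT6A had 11.95, 9.84 and 11.79 after drug and 10.31, 8.87 and 10.01 after vehicle, and KRT80 had 9.61, 7.90 and 9.78 after drug and 8.50, 7.24 and 8.44 after vehicle. The groups overlapped in both, and KRT80 was called with the block (limma, adjusted p = 0.0003) and not without it (0.062), and under 6 of the 15 alternatives in all.

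CASP9, the initiator caspase of the mitochondrial death pathway, fell. Its brighter probe had 6.34, 6.95 and 6.57 after drug and 8.93, 8.63 and 9.07 after vehicle, a 4.79-fold difference (limma, adjusted p = 8.5e-08), and a second CASP9 probe fell by 1.46. TNFRSF12A, the receptor of the cytokine TWEAK, rose 3.12-fold, and the third named apoptosis gene, BIK, did not pass. C13orf15, now named RGCC, a regulator of the cell cycle, had 9.67, 9.69 and 9.55 after drug and 11.48, 11.82 and 11.51 after vehicle, a 3.92-fold fall. ACOX2, a peroxisomal oxidase, fell 3.33-fold and was detected on 2 of the 3 drug arrays. HBA2, an alpha-globin gene with a near-identical copy, fell by 1.66.

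ABCA1 and ABCG1, the cholesterol exporters driven by sterol-activated LXR, rose 3.20-fold and 2.43-fold, with ABCG1 at 9.83, 9.79 and 9.77 after drug and 8.66, 8.25 and 8.62 after vehicle. In the same list of 9 genes 3 fell, among them INSIG1, which holds the sterol sensor in the endoplasmic reticulum, by 1.18 and the acetyl-CoA enzyme ACAT2 by 0.96, and 4 did not pass. Amino acid stress genes rose in 4 of 6 cases, with ASNS, asparagine synthetase, at 12.83, 12.72 and 13.07 after drug and 11.82, 11.91 and 11.81 after vehicle. A second ASNS probe did not pass (0.52, limma adjusted p = 0.062). ALDH3A1, an aldehyde dehydrogenase, rose 3.18-fold and the drug-metabolising CYP3A5 rose 2.98-fold, while 8 of 11 genes of metal, redox and drug metabolism did not pass. MT2A, of the metallothioneins, a family with near-identical members whose probes are uncertain, had 12.32, 10.76 and 12.28 after drug and 11.92, 10.10 and 11.83 after vehicle. Its replicate 2 cultures were low in both groups, and of the 15 alternatives it was called under 1, the block (limma, adjusted p = 0.61 without it and 0.024 with it). Interferon genes gave 1 rise (IFIT3, with a second probe not called) and 1 fall (SLFN11) among 11, each count running from 0 to 2 over the alternatives, and 0 of 3 antigen presentation genes passed. IFIT3 was called under 9 of the 15 alternatives, and IFIT1 (0.49) was called with the block (limma, adjusted p = 0.092 without it and 0.041 with it). Of 7 secreted inflammatory genes IL20RB, CFB and IL32 rose and IGFBP3 fell, and the defensin DEFB1 (0.77) was called with the block (limma, adjusted p = 0.14 without it and 0.019 with it).

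**Figure D4:**
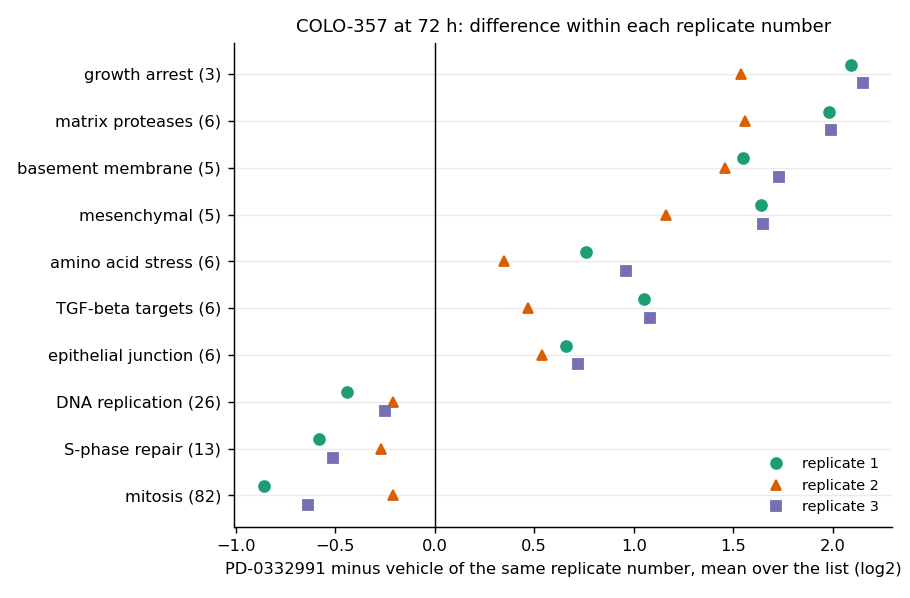
Mean drug minus vehicle difference (log2) over the named genes of 10 lists in COLO-357 at 72 h, taken within replicate 1 (circles), replicate 2 (triangles) and replicate 3 (squares), with the number of genes in brackets. For mitosis the replicate 2 value is -0.21 against -0.86 and -0.64, and for the basement membrane it is 1.46 against 1.55 and 1.73.

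With the replicate block 3291 probes were called (13.3%), 1652 higher (6.67%) and 1639 lower (6.62%). Of the named genes 323 were called in both fits, 31 were gained, 15 of them higher, and 7 were lost, all lower. OPN3, an opsin, was gained, with 7.18, 8.83 and 6.99 after drug and 8.54, 9.81 and 8.77 after vehicle (limma, adjusted p = 0.057 without the block and 0.00014 with it). RARRES1, a retinoid-induced gene, had 6.69, 7.91 and 6.49 after drug and 7.38, 9.49 and 7.62 after vehicle, and was also gained (limma, adjusted p = 0.11 and 0.0025 in the same order). In both genes replicate 2 was the highest culture in each group.

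Some genes had larger effects at 72 h than at 24 h. Basement membrane genes had a median effect of 0.71 at 24 h and 1.60 at 72 h, and protease and invasion genes had 0.59 and 1.90. Both sides moved between 24 h and 72 h. The median change of basement membrane genes was 0.49 in drug cultures and -0.37 in vehicle cultures. For protease and invasion genes it was 0.66 in drug cultures and -0.25 in vehicle cultures. The authors' 72 h list of this line named 4 of the 5 basement membrane genes and 4 of the 6 protease and invasion genes. That choice favours a larger effect at 72 h in these genes. The increase passed for COL17A1, MMP7 and F3 among these, and with the block for 3 genes of each list, LAMA3 among them (limma, adjusted p = 0.016). CYR61 had a difference of -0.04 at 24 h and 1.92 at 72 h. Part of this change was on the vehicle side: between 24 h and 72 h CYR61 changed by 0.65 in drug cultures and -1.32 in vehicle cultures, and CAV1 by 0.52 in drug cultures and -1.17 in vehicle cultures. LFNG, a glycosyltransferase acting on Notch receptors, likewise changed by 0.31 in drug cultures and -1.55 in vehicle cultures. Effects that were lower at 72 h than at 24 h included those on MUC5AC, the calpain CAPN12, TJP3, CASP9, ACOX2, the glycolytic aldolase ALDOC, C13orf15 and IGFBP3, with differences from -1.77 to -1.27. For several of these the vehicle cultures changed too: ACOX2 averaged 5.86 in drug cultures and 6.04 in vehicle cultures at 24 h, and 5.80 in drug cultures and 7.53 in vehicle cultures at 72 h. Between the times CASP9 changed by -0.62 in drug cultures and 0.99 in vehicle cultures. ALDOC changed by -0.47 in drug cultures and 0.92 in vehicle cultures, and C13orf15 by -0.51 in drug cultures and 0.85 in vehicle cultures. TJP3 and ALDOC were called higher after drug at 24 h (0.64 and 0.59) and lower at 72 h (-1.08 and -0.79).

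Compared with AsPC-1 cells at 72 h, the drug effect differed at 836 probes (3.38%), being higher in COLO-357 at 477 (1.93%) and lower at 359 (1.45%), a split that became 560 and 1384 after scaling to the 75th percentile and 306 and 2756 with the authors' scaled values. Of the named genes, 112 were named through AsPC-1 drug lists only. Naming for a change in 1 line favours a difference between lines, so the differences of named genes are not independent of the naming. Of the 82 mitosis genes 1 passed, CENPN, with a difference of -0.82 (limma, adjusted p = 0.016). MMP7 differed most, with an effect of 1.98 in COLO-357 and -2.03 in AsPC-1 (difference 4.02; limma, adjusted p = 5.3e-07). The estimates also had opposite signs in CYP3A5 (1.58 in COLO-357 and -1.53 in AsPC-1), LFNG (1.92 and -0.99), PCDH7 (2.11 and -0.80) and ALDH3A1 (1.67 and -1.03). The AsPC-1 effects are given as estimates without a call of their own, as only the difference between lines is reported as a test. GPX2, an antioxidant peroxidase, had 0.11 in COLO-357 and -3.38 in AsPC-1. VIL1 (0.30 in COLO-357 and -2.21 in AsPC-1) and ACSM3 (0.54 and -1.71) were not called in COLO-357, although ACSM3 was with the block (limma, adjusted p = 0.022). In the other direction DUSP1, a phosphatase of MAP kinases, had -0.41 in COLO-357 and 2.04 in AsPC-1. Its COLO-357 effect was not called (limma, adjusted p = 0.25), but was with the block (adjusted p = 0.037) and under both other scalings. MFAP5, a microfibril protein, and COL4A1 had smaller effects in COLO-357 (0.80 and 0.61) than in AsPC-1 (2.85 and 2.47). CASP9, MUC5AC and IGFBP1 fell in COLO-357 (-2.26, -1.88 and -1.49) and had -0.11, 0.10 and 0.10 in AsPC-1. CA2, a carbonic anhydrase, had -1.07 in COLO-357 and 1.07 in AsPC-1, and CADM4, detected on 2 of the 3 COLO-357 drug arrays, had -0.38 in COLO-357 and 1.70 in AsPC-1.

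**Figure D5:**
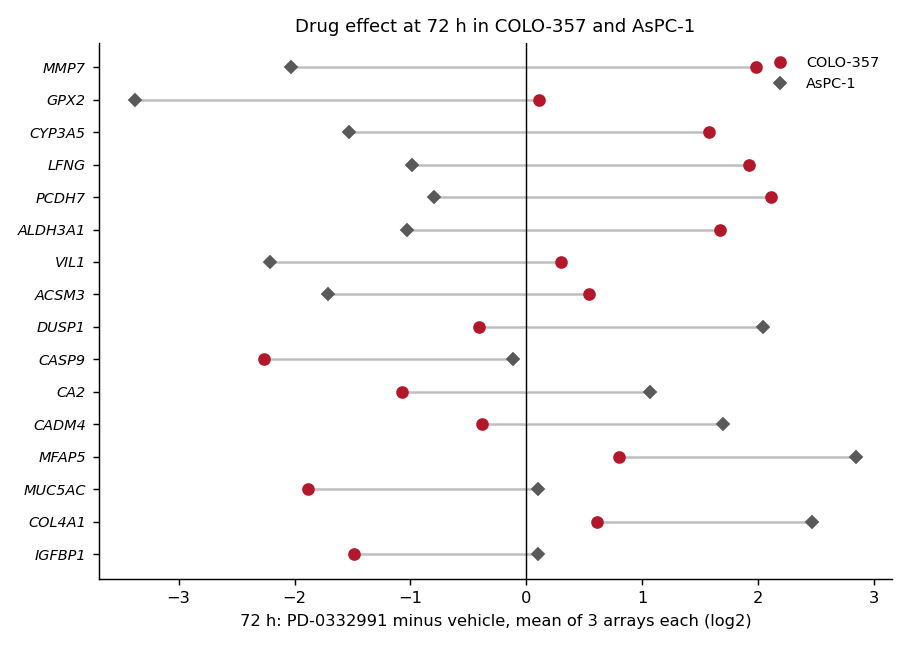
Drug effect at 72 h (PD-0332991 minus vehicle, mean log2 of 3 arrays each) of 16 named genes in COLO-357 (circles) and AsPC-1 (diamonds), the 8 whose effect was most above and the 8 most below AsPC-1. MMP7 spans from 1.98 in COLO-357 to -2.03 in AsPC-1, and DUSP1 from -0.41 in COLO-357 to 2.04 in AsPC-1.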

How the data were processed

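The labels give 24 cultures in 8 groups of 3, by cell line, time and treatment with PD-0332991 or vehicle. The deposited table of bead-summary intensity values, linear and not normalised per the file headers, was the starting point, with its detection p-value per probe and array as deposited. The authors' value table held the same intensities multiplied by 1 factor per array, to within 6.7e-05 percent. The authors' deposited lists give the ratio (fold) of treated over control per probe and the only gene symbols used here. Of 605 symbols, 462 were current in RefSeq, 74 older and 69 neither. No source used here names the submitters' software.

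Background correction from detection p-values, an offset of 16, quantile normalisation and log2 were applied with neqc of limma 3.58.1 in R 4.3.3, so that each value is relative to an equal distribution on every array. Probes with detection p under 0.05 on at least 3 arrays were kept, 24750 of 47223. A limma model with 1 mean per group was fitted to all 24 arrays (16 residual and 5.84 prior degrees of freedom), with two-sided tests and Benjamini-Hochberg adjustment over all probes. The precision is limited by 3 arrays per group. A gene with several probes took the one with the highest mean. Genes named in the text were members of the gene lists, the 15 largest rises and falls without overlap, the 8 largest differences each way between times and between lines, and the 8 genes each way with drug replicate 2 farthest from the other 2. The members, lists and motifs were chosen with earlier results of these data known. Some genes that this rule covers are not reported here. The fit was tested on simulated data.

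The labels give replicate numbers but no shared batch, and no slide or scan was given. Deviations from the group means of same-numbered drug and vehicle cultures of COLO-357 correlated across probes at 0.15, 0.38 and 0.14 at 72 h, so the numbers were taken to pair the cultures. Drug replicate 3 correlated at 0.18 with vehicle replicate 1, and drug replicate 1 at 0.11 with vehicle replicate 3. The correlations thus do not tell the pairs of replicates 1 and 3 apart. In AsPC-1 at 72 h the same-numbered values were 0.08, 0.12 and 0.03. The alternatives tried were other scalings, no background correction, no filter, only the compared groups, array weights, a stricter threshold, the replicate block and leaving out arrays. Plots used matplotlib 3.10.9 (Python 3.11.15).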

Additional observations from a re-analysis of the deposited data

Results flagged for a closer look

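The drug effect in COLO-357 differed between 72 h and 24 h by a limma test of the difference itself. The largest upward differences on the log2 scale were in KIF20A (2.46, adjusted p = 0.00011), CDCA3 (2.42), CKAP2L (2.39), PSRC1 (2.30), BIRC5 (2.25), CENPA (2.14), HJURP (2.03) and EPR1 (2.01, adjusted p = 0.00096), all limma. EPR1 lies antisense to BIRC5, and their signals may not be separate. The largest downward differences were in MUC5AC (-1.77, limma adjusted p = 0.048), CAPN12 (-1.74), TJP3 (-1.72), CASP9 (-1.61), ACOX2 (-1.56), ALDOC (-1.39), C13orf15 (-1.36) and IGFBP3 (-1.27, limma adjusted p = 0.016).

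The drug effect at 72 h also differed between COLO-357 and AsPC-1 by the same kind of test. It was higher in COLO-357 for MMP7 (4.02, limma adjusted p = 5.3e-07), GPX2 (3.49), CYP3A5 (3.10), LFNG (2.92), PCDH7 (2.91), ALDH3A1 (2.70), VIL1 (2.51) and ACSM3 (2.25). It was lower in COLO-357 for DUSP1 (-2.46, limma adjusted p = 4e-05), CASP9 (-2.15), CA2 (-2.14), CADM4 (-2.09), MFAP5 (-2.05), MUC5AC (-1.98), COL4A1 (-1.86) and IGFBP1 (-1.59, limma adjusted p = 0.04). The lines were grown in different media, and line and medium cannot be told apart.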

How the results depend on the processing

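Of the named genes' calls at 72 h, those of the matrix protease and growth arrest lists kept their direction and their side of the threshold under all 15 alternatives, while mitosis calls ran from 21 to 75. The 2791 probes called at 72 h became 4977 with scaling to the 75th percentile, 5899 with the authors' scaled values, 4823 with array weights and 1451 at an adjusted p under 0.01. Leaving out 1 array gave 1705 (without drug replicate 1) to 2998 (without drug replicate 2), and 1710 without drug replicate 3. The 456 probes whose effect differed between times became 961, 1288, 1239 and 144 under those same 4 settings, and 271 to 559 with 1 array left out. The lowest of these were 271 without vehicle replicate 1 at 24 h, 274 without vehicle replicate 2 at 72 h, 276 without drug replicate 3 at 72 h and 296 without drug replicate 2 at 24 h. The 836 probes that differed between lines became 1944, 3062, 1719 and 309, and 485 (without COLO-357 drug replicate 3) to 930 with 1 array left out, with 499 without AsPC-1 drug replicate 1 and 499 without AsPC-1 vehicle replicate 2. The cause was not tested. With the replicate block the 3 counts were 3291, 682 and 1187, and genes described in the text whose 72 h call the block changed have both values there. Without both replicate 2 cultures 2308 probes were called, 1980 of them among the 2791. Probes near background limit what a difference of low genes such as ACOX2 can show.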
